A study of Danio rerio with 16 samples.

Results

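The livers of HBx(p53-) zebrafish were compared between 2 obesity diets and a normal diet. HBx(p53-) fish carry the HBx gene of hepatitis B virus under the liver promoter of fabp10a, on a p53 mutant background of the AB strain. The libraries were chosen by their genotype and diet labels alone, which gave 4 of the 16 liver RNA-seq libraries: 1 from overfed fish (DIO), 1 from fish on a high-fat diet (FAT), and 2 from fish on the normal diet (NOR). DIO and FAT together are called the obesity diets below. DIO fish ate 2 ml of Artemia at each of 3 daily feeds, which is 12-fold the NOR amount. FAT fish had a single daily feed of 0.5 ml of Artemia, plus about 0.22 g of high-fat food at 3 daily feeds. NOR fish had the single feed of 0.5 ml of Artemia. All groups also got powdered feed each morning. Fish were 3 months old at the start and were fed for 8 weeks. The 4 wild-type (WT) libraries of the AB strain, 1 DIO, 1 FAT and 2 NOR, served as the comparison for what HBx(p53-) fish did. All 4 HBx(p53-) libraries share the transgene and the p53 mutation, so the diet comparison within them says nothing of either. The number of sequenced fish in the figure legends equals the number of libraries, or 1 fish for each library. The sex of these fish and the hour of collection relative to the last meal were not given in the sources used here.

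The liver is the organ that switches most visibly between feeding and fasting. When food is scarce it releases glucose, through gluconeogenesis and the breakdown of glycogen, and burns amino acids and fatty acids to do so. After a meal, insulin turns those programs down and raises glucose phosphorylation, glycogen storage and fat synthesis. In mammals, genes such as IGFBP1, G6PC1, PDK and IRS2 are held down by insulin and held up by fasting hormones, while glucokinase goes the other way. Lists of the genes of these programs, and of the programs that a stressed or growing hepatocyte uses, were therefore read across the 4 libraries.

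Levels are in FPKM, the number of sequenced fragments for each kilobase of a transcript scaled to the mapped total. No read counts came with them, so how many fragments stand behind a gene is unknown and a gene listed at 0 has no upper limit. In the HBx(p53-) libraries the FPKM summed to 889356 (DIO), 812158 (FAT), 864489 and 1090650 (NOR), and 20431 to 21687 genes were above 0. Genes whose mean over the 4 libraries reached 10 FPKM are called abundant below, and there were 4300 of them. Across the abundant genes, the Pearson correlation of log2(FPKM + 1) was 0.857 between DIO and FAT and 0.843 between the NOR libraries, and 0.829 to 0.878 between an obesity library and a NOR library. The NOR libraries were thus no more alike than libraries of different diets, and this spread limits every comparison below. Each entry of the table names 1 transcript, so a value may belong to 1 isoform of its gene. The hepatocyte markers were present, with 4 of 8 matched and a summed level of 5285 (DIO), 4859 (FAT), 5961 and 9064 FPKM (NOR). Exocrine pancreas markers (8 of 13 matched, 1 of them at 0 in all 4 libraries) summed to 29.3 (DIO), 105 (FAT), 13.1 and 67.6 FPKM (NOR), and red blood cell markers (5 of 6 matched, hbaa1 highest) to 779, 336, 226 and 408 FPKM in the same order of diets. Leukocyte markers (6 of 8 matched) summed to 28.5 to 51 FPKM, myl7 of the heart lay between 4.12 and 15.5 FPKM, and the markers of 7 further cell types summed to at most 5.13 FPKM in any of the 4 libraries. In whole liver, fewer cells of a type and less RNA per cell cannot be told apart. The viral transgene was not looked for, since it is no zebrafish gene. The fabp10a gene, whose promoter drives it, was at 1819 (DIO), 991 (FAT), 1992 and 3134 FPKM (NOR).

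The first comparison asked which genes differed between the obesity diets and NOR in HBx(p53-) liver. Among the genes that lay lower in both obesity libraries than in both NOR libraries were the insulin-like growth factor binding proteins igfbp1a and igfbp1b, the glucose-releasing enzyme gene g6pc1a.2, the pyruvate dehydrogenase kinase gene pdk2b and many enzymes of amino acid breakdown. Transcription factors of the immediate early and growth-arrest class, such as mycb, junbb and klf9, lay lower with them. The genes that were higher without overlap were fewer on the values as deposited, but not under the other scalings given below. The higher genes included glucokinase (gck), the clock gene per2, enolase (eno1a) and socs3b. Only a small number of genes passed the test.

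The test was limma on log2(FPKM + 1), with all 16 libraries in 8 groups of genotype and diet and Benjamini-Hochberg adjustment of p-values over 33724 genes. It called 8 genes at an adjusted p under 0.05, which is 0.0237% of those tested, and all 8 were lower on the obesity diets. At an unadjusted p under 0.05 it gave 1488 genes. Irrespective of the test, 683 genes (2.03%) were at least 2-fold higher and 891 (2.64%) at least 2-fold lower on the log2(FPKM + 1) scale, which understates the change of low genes. The smallest p that exact permutation allows for 2 libraries against 2 is 0.333. Limma therefore leans on the spread shared with the other genotypes, and its p-values measure the spread between these libraries, which are 1 fish each. In the 8 groups, the obesity groups of WT, HBx(p53-) and Src(p53-) pool DIO with FAT. The spread within those groups therefore includes the difference between the 2 diets. With the 4 HBx(p53-) libraries alone, limma called 0 genes, and 1373 had an unadjusted p under 0.05. With 11 groups it called 516, and it called 317 without DIO, 370 without FAT, 570 without NOR library 1 and 745 without NOR library 2.

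Abundant genes were therefore described by whether the diets overlapped. Of the 4300 abundant genes, both obesity libraries lay above both NOR libraries in 469 (10.9%) and below both in 754 (17.5%). With the further condition of a 2-fold difference, 118 genes were higher (2.74%) and 241 were lower (5.6%). The excess of lower genes depended on the scaling: with the FPKM of each library brought to a common sum, 889 of the same 4300 genes (20.7%) lay above and 534 (12.4%) below, and after quantile normalization 788 (18.3%) lay above and 680 (15.8%) below. The median log2 difference of the 4300 genes was -0.08 as deposited and 0.10 with a common sum, and the medians of the gene lists given below are to be read against it. The genes at least 2-fold apart were less affected. Of the 241 lower genes, 218 still lay below without overlap at a common sum and 216 after quantile normalization, and of the 118 higher genes, 117 and 114 still lay above. Without NOR library 2 the excess of lower genes turned, with 547 higher and 365 lower by 2-fold and without overlap, as it did without FAT, with 360 higher and 292 lower. Without NOR library 1 there were 179 and 608, and without DIO 178 and 620. Symbols were found for 35 of the 118 higher and 119 of the 241 lower genes.

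The called gene with the highest level was dscama, a cell adhesion molecule of the Down syndrome family that is known from the nervous system. It was at 1.28 FPKM in DIO and 0.392 FPKM in FAT, against 145 and 91.8 FPKM in NOR. Both obesity libraries were near the floor and far from both NOR libraries. The log2 fold change was -6.03 (SE 0.59, limma adjusted p = 0.00745), and it stood at -5.68 with DIO and -6.39 with FAT. The call was lost when only the 4 HBx(p53-) libraries were fitted (limma adjusted p = 0.339) and kept in the other alternatives. The second called gene with a symbol was slc13a1, a sodium and sulfate transporter in mammals, listed at 0 in DIO and in FAT, against 0.766 and 1.08 FPKM in NOR (limma adjusted p = 0.0227). At levels this low its call was lost with a pseudocount of 0.1 in place of 1 (limma adjusted p = 0.0753). The other 6 called genes had no symbol.

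**Figure D1:**
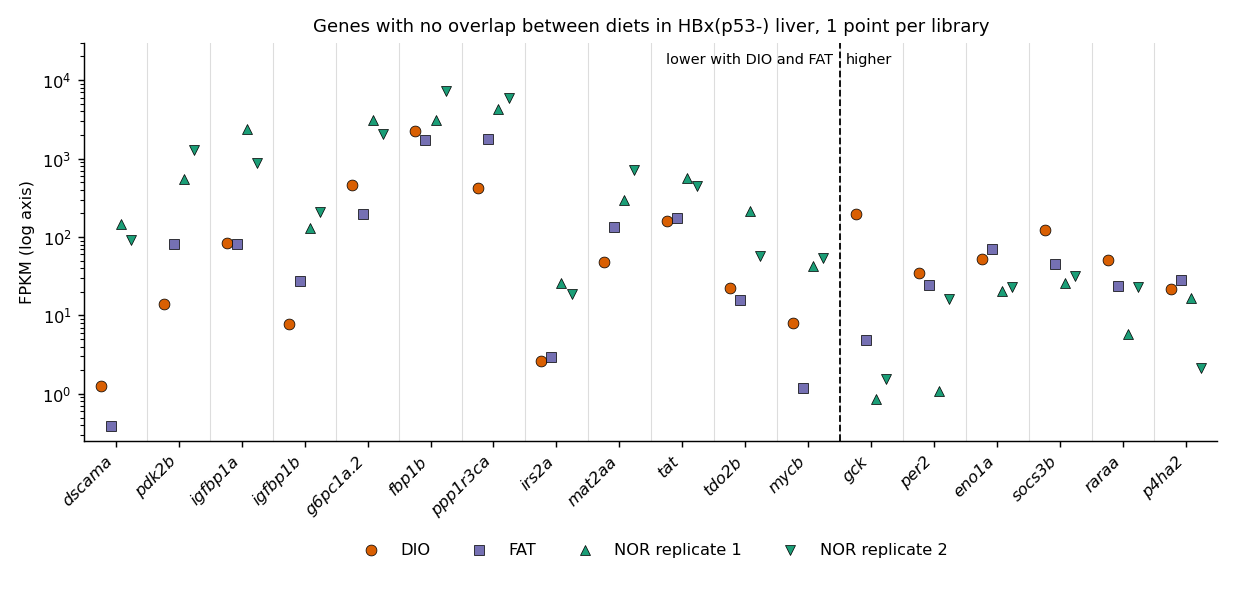
FPKM (log axis) of 18 genes in each HBx(p53-) library, with 1 point per library: circle DIO, square FAT, triangles the 2 NOR libraries. Left of the dashed line both obesity libraries lie below both NOR libraries (igfbp1a 82.7 and 80.4 against 2354 and 886 FPKM), and right of it above them (eno1a 51.7 and 70.4 against 20.7 and 23.2 FPKM).

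Secreted binding proteins and signalling molecules of the insulin pathway were among the genes furthest apart. Igfbp1a, which binds insulin-like growth factors in the blood and is made by the liver in fasting, was at 82.7 FPKM in DIO and 80.4 FPKM in FAT, against 2354 and 886 FPKM in NOR. Its duplicate igfbp1b was at 7.72 FPKM in DIO and 27.2 FPKM in FAT, against 130 and 210 FPKM in NOR. For both genes the highest obesity library lay well below the lowest NOR library. The log2 fold changes were -4.13 (SE 1.75) for igfbp1a and -3.41 (SE 1.67) for igfbp1b, and neither passed the test (limma adjusted p = 0.995 for both). The insulin receptor substrate gene irs2a was at 2.65 FPKM in DIO and 2.93 FPKM in FAT, against 25.8 and 18.6 FPKM in NOR (log2 fold change -2.60, SE 1.07). Here libraries of one diet class were close to each other. In the other direction, socs3b, a suppressor of cytokine signalling that also dampens insulin signalling in mammals, was at 122 FPKM in DIO and 45 FPKM in FAT, against 25.6 and 31.8 FPKM in NOR (log2 fold change 1.35, SE 0.74). The transcription factor gene foxo3b, which insulin signalling keeps out of the nucleus, was at 24.7 and 17.2 FPKM in DIO and FAT, against 14.8 and 6.66 FPKM in NOR. Of the 16 abundant insulin signalling genes (33 of 62 listed genes were matched), 3 lay above without overlap and 5 below, and 0 passed the test. These shares were 18.8% and 31.2%, against 10.9% and 17.5% of all 4300 genes. After quantile normalization 4 lay above and 4 below. The list's median log2 difference was -0.48, and it became 0.19 without NOR library 2.

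The glucose-releasing enzyme genes g6pc1a.2 and fbp1b lay lower, while other genes of gluconeogenesis and those that trap glucose were mixed. The g6pc1a.2 gene, a catalytic subunit of the glucose-6-phosphatase that frees glucose for export, was at 464 FPKM in DIO and 197 FPKM in FAT, against 3067 and 2044 FPKM in NOR (log2 fold change -3.05, SE 1.25, limma adjusted p = 0.995). The fructose bisphosphatase gene fbp1b, the preceding controlled step, was at 2273 FPKM in DIO and 1707 FPKM in FAT, against 3140 and 7305 FPKM in NOR (-1.28, SE 0.76). The diets did not overlap in either gene, but the NOR libraries of fbp1b were themselves far apart. Of the 7 abundant gluconeogenesis genes (10 of 17 listed genes were matched), 4 lay below without overlap and 0 above. The 4 were g6pc1a.2, fbp1b, and the malate dehydrogenase genes mdh1aa and mdh2. The log2 difference was negative in these 4 and positive in 3. The share below was 57.1%, against 17.5% of all 4300 genes. After quantile normalization 4 lay below and 1 above. The mitochondrial pck2, which makes phosphoenolpyruvate, overlapped, at 1331 and 1033 FPKM in DIO and FAT against 691 and 1773 FPKM in NOR. Another malate dehydrogenase gene, mdh1ab, overlapped too, at 74.2 FPKM in DIO and 8.73 FPKM in FAT, against 17.4 and 21.6 FPKM in NOR. The list's median was -0.43, between -1.06 and -0.19 when 1 library was left out, and 0 of its genes passed the test.

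The kinase gene pdk2b had the lowest log2 fold change of the named genes after dscama. Its protein phosphorylates pyruvate dehydrogenase and so holds back the oxidation of glucose carbon in fasting. It was at 13.9 FPKM in DIO and 80.7 FPKM in FAT, against 545 and 1272 FPKM in NOR. The obesity libraries differed from each other as well, with DIO the lower. The log2 fold change was -4.58 (SE 1.81, limma adjusted p = 0.995).

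Glycogen genes did not move as a block. The gene ppp1r3ca, a subunit that brings a protein phosphatase to glycogen and activates its synthesis, was at 422 FPKM in DIO and 1790 FPKM in FAT, against 4335 and 5869 FPKM in NOR (log2 fold change -2.53, SE 0.90). Its duplicate ppp1r3cb was on the other side, at 96.4 FPKM in DIO and 50.0 FPKM in FAT, against 25.4 and 47.4 FPKM in NOR (0.98, SE 0.82). The more abundant duplicate was thus lower and the less abundant one higher, both without overlap, though for ppp1r3cb the gap between FAT and the higher NOR library was narrow. The glycogen primer gene gyg1a was at 340 and 254 FPKM in DIO and FAT, against 425 and 624 FPKM in NOR.

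Glycolysis genes split by isoform. Glucokinase (gck), which phosphorylates glucose in the fed liver, was at 194 FPKM in DIO and 4.88 FPKM in FAT, against 0.86 and 1.55 FPKM in NOR. Only DIO was high, and FAT exceeded NOR by a few FPKM. The log2 fold change of 3.96 therefore carried a wide error (SE 2.96), and was 6.49 with DIO and 1.43 with FAT. The enolase gene eno1a was at 51.7 FPKM in DIO and 70.4 FPKM in FAT, against 20.7 and 23.2 FPKM in NOR (1.42, SE 0.72). The aldolase gene aldoaa and the pyruvate kinase gene pkma, whose mammalian relatives dominate outside the liver, were also higher without overlap, with pkma at 73.8 and 70.7 FPKM in DIO and FAT, against 23.5 and 64.3 FPKM in NOR. Other glycolysis genes were on the lower side, among them gapdh, which encodes a dehydrogenase of the pathway, at 248 and 190 FPKM in DIO and FAT against 373 and 803 FPKM in NOR, and the lactate dehydrogenase gene ldhba, at 27 and 8.63 FPKM against 47.9 and 122 FPKM. In gapdh and ldhba the NOR library 2 was the highest by a wide margin. Of the 13 abundant glycolysis genes, 4 lay above and 5 below without overlap, and 0 passed the test. These shares were 30.8% and 38.5%, against 10.9% and 17.5% of all 4300 genes.

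**Figure D2:**
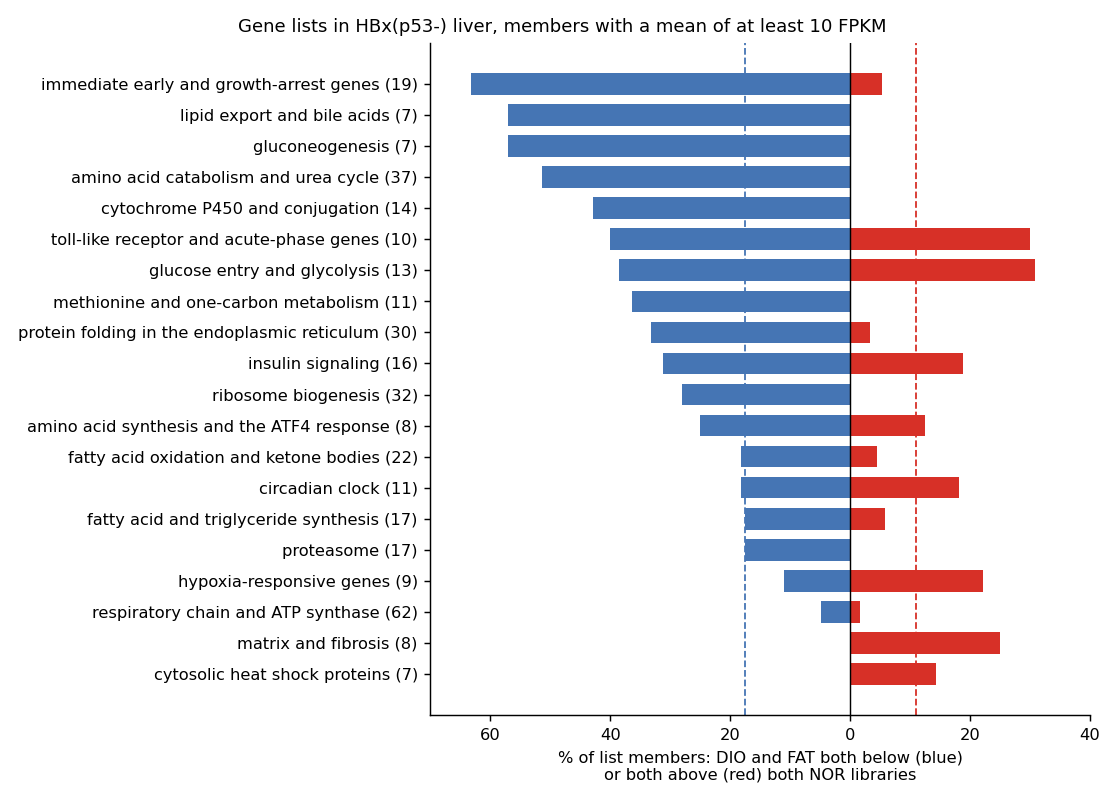
Share of each list's abundant genes (number in brackets) that had DIO and FAT both below (bars to the left, percent) or both above (bars to the right, percent) both NOR libraries in HBx(p53-) liver. The dashed lines mark the shares over all 4300 genes, 17.5% below and 10.9% above, and the amino acid list reaches 51.4% below with 0 genes above. The glycogen, cholesterol, iron and heme, cell cycle, p53 and Wnt lists, each with fewer than 7 abundant genes, are not drawn. Nor is the list of genes that the study names.

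Amino acid catabolism was the largest list in which no gene lay above NOR without overlap and more than 50% lay below. Its enzymes strip nitrogen from amino acids and feed their carbon to glucose or to the citric acid cycle. Of the 84 listed genes 49 were matched and 37 were abundant. Both obesity libraries lay below both NOR libraries in 19 of them (51.4%, against 17.5% of all 4300 genes), by at least 2-fold in 11, and 0 lay above. The log2 difference was negative in 33 of 37, and the median was -0.62 against -0.08 over all genes. At a common sum, and likewise after quantile normalization, 17 of 37 lay below and 0 above, with a median of -0.43. The median stayed negative when 1 library was left out, between -1.0 without DIO and -0.30 without FAT. None of the 37 genes passed the test.

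Values of 3 genes of the tyrosine pathway are given, and its other listed members pah, hpdb and gstz1 are not reported here. The tyrosine aminotransferase gene tat, the first step, was at 159 FPKM in DIO and 173 FPKM in FAT, against 569 and 448 FPKM in NOR (log2 fold change -1.60, SE 0.67). The dioxygenase gene hpda, which acts after it, was at 342 and 492 FPKM in DIO and FAT, against 564 and 910 FPKM in NOR. The next dioxygenase gene, hgd, was at 473 FPKM in DIO and 590 FPKM in FAT, against 907 and 1374 FPKM in NOR (-1.08, SE 0.41). In all 3 genes the diets did not overlap, and in tat DIO and FAT were nearly equal. The tryptophan dioxygenase gene tdo2b was at 22.7 FPKM in DIO and 15.8 FPKM in FAT, against 213 and 56.9 FPKM in NOR (-2.48, SE 1.66). The histidine pathway gene amdhd1 was at 9.91 FPKM in DIO and 13.5 FPKM in FAT, against 36.6 and 39.3 FPKM in NOR (-1.63, SE 0.49, limma adjusted p = 0.897). Both libraries of each diet class were close together in amdhd1, as they were in phykpl, which breaks down phosphohydroxylysine, at 8.99 and 14.1 FPKM in DIO and FAT against 33.6 and 39.0 FPKM in NOR.

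Some nitrogen-handling enzymes of the same list were lowest in FAT. Glula, a glutamine synthetase that binds ammonia, was at 21.7 FPKM in DIO and 4.32 FPKM in FAT, against 94.8 and 61.2 FPKM in NOR (log2 fold change -2.81, SE 1.31). The aminotransferase gene agxtb was at 137 FPKM in DIO and 47.6 FPKM in FAT, against 235 and 510 FPKM in NOR (-2.08, SE 1.15). In both genes DIO lay between FAT and NOR. Some members do not degrade amino acids: upp2, which splits uridine, was at 25.5 and 35.8 FPKM in DIO and FAT against 167 and 120 FPKM in NOR, and etnppl, which degrades phosphoethanolamine, was at 75.1 and 19.2 FPKM against 88.8 and 79.0 FPKM. By diet, FAT lay below both NOR libraries in 31 of the 37 genes and DIO in 19, with medians of -0.30 for DIO and -1.0 for FAT against the shared NOR libraries. Over all 4300 genes FAT lay below both NOR libraries in 1908 and DIO in 1102, with medians of 0.11 for DIO and -0.26 for FAT.

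**Figure D3:**
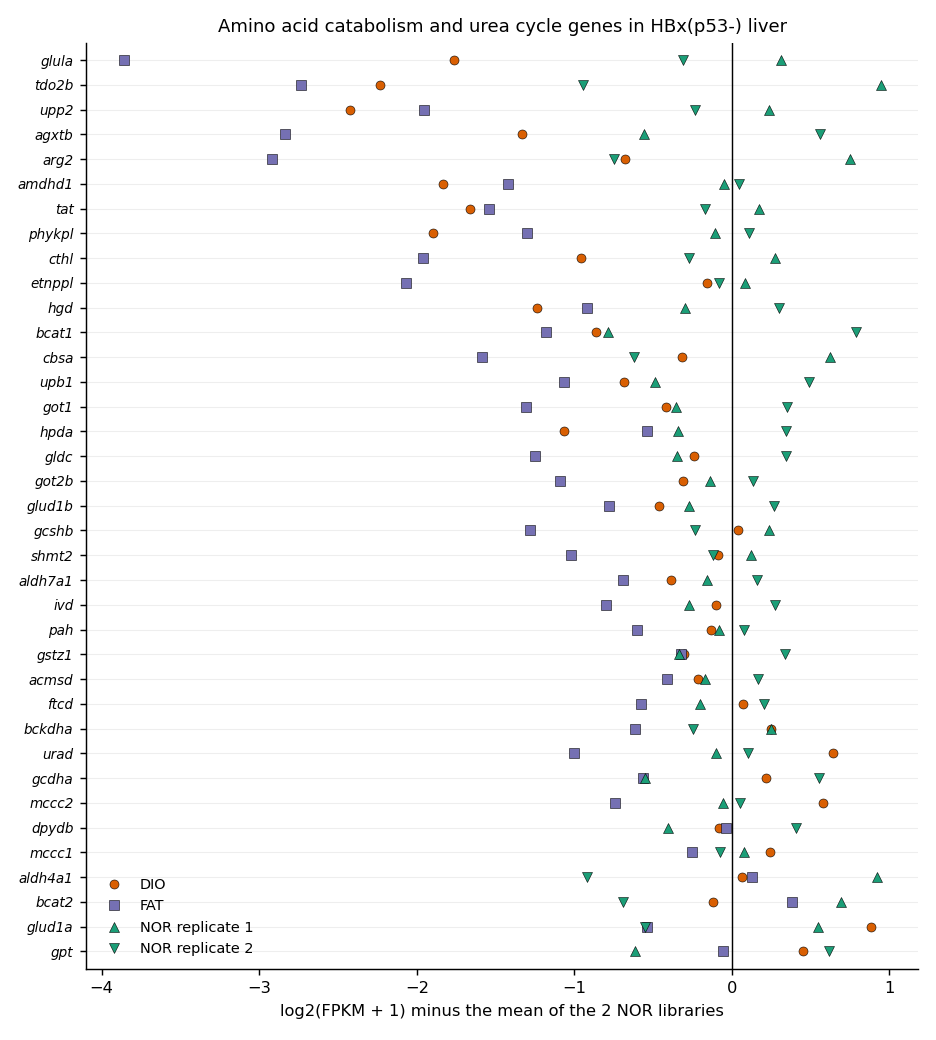
The 37 abundant amino acid catabolism and urea cycle genes in HBx(p53-) liver, each library's log2(FPKM + 1) minus the mean of the 2 NOR libraries; genes run down the page and each point is 1 library. FAT (squares) lies left of both NOR triangles in 31 genes and DIO (circles) in 19, with both left of them in 19.

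Methionine and one-carbon genes lay below or overlapped. The methionine adenosyltransferase gene mat2aa, which makes the methyl donor S-adenosylmethionine, was at 48.1 FPKM in DIO and 133 FPKM in FAT, against 297 and 720 FPKM in NOR (log2 fold change -2.51, SE 0.81). The folate enzyme gene aldh1l1 was at 29.7 FPKM in DIO and 49.9 FPKM in FAT, against 98.3 and 125 FPKM in NOR (-1.5, SE 0.54). In both genes DIO was the lowest library. Mat1a, the adult liver form of the same transferase, and ahcy, which clears the product of methylation, lay below by less than 2-fold. Of the 11 abundant genes, 4 lay below (36.4%, against 17.5% of all 4300 genes) and 0 above without overlap. At a common sum 1 lay above and 3 below (27.3%, against 12.4% of all genes).

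The immediate early and growth-arrest list had the largest share below NOR on the values as deposited. These are transcription factors and antiproliferative proteins whose mRNAs turn over fast and answer to stress, glucocorticoids and growth signals. Of 19 abundant genes, 12 lay below without overlap (63.2%, against 17.5% of all 4300 genes), 11 of them by at least 2-fold, and 1 lay above. At a common sum and after quantile normalization 10 lay below (52.6%) and 2 above, and the share below was then larger in the 7 gluconeogenesis genes (57.1%). The exception was zfp36l1a, which promotes mRNA decay, at 50.0 and 45.2 FPKM in DIO and FAT against 19.7 and 33.0 FPKM in NOR. The median was -1.28 with the diets pooled, -1.22 with DIO and -1.18 with FAT. It remained between -1.47 and -1.18 when any of the 4 libraries was left out, and 0 genes passed the test.

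Among its members, the myc gene mycb was at 8.08 FPKM in DIO and 1.19 FPKM in FAT, against 42.5 and 54.2 FPKM in NOR (log2 fold change -3.46, SE 1.41, limma adjusted p = 0.995). The related mych was at 8.72 and 5.83 FPKM in DIO and FAT, against 32.8 and 50.5 FPKM in NOR (-2.36, SE 1.28). Both myc genes drive ribosome production and growth in other settings, and both lay low in each obesity library. The jun family gene junbb was at 21.3 FPKM in DIO and 8.37 FPKM in FAT, against 51.1 and 134 FPKM in NOR. The antiproliferative genes tob1b, btg1 and btg3 lay on the same side as the growth-promoting mycb and pim1, with tob1b at 57.4 and 30.8 FPKM in DIO and FAT, against 154 and 185 FPKM in NOR (-1.98, SE 0.82). The genes klf9, klf15 and tsc22d3, which glucocorticoids induce in mammals, also lay lower, with klf9 at 124 FPKM in DIO and 27.9 FPKM in FAT, against 404 and 213 FPKM in NOR (-2.29, SE 1.86). For klf15 the gap was small on the side of NOR library 2, with 24.6 and 24.2 FPKM in DIO and FAT against 116 and 27 FPKM in NOR.

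Stress response genes downstream of the factor ATF4 gave single examples rather than a list. Chac1, which degrades glutathione in stressed cells, was at 61.4 FPKM in DIO and 9.30 FPKM in FAT, against 301 and 117 FPKM in NOR (log2 fold change -2.90, SE 1.63). Ppp1r15a, which restores translation after stress, was at 1.88 and 3.25 FPKM in DIO and FAT, against 15.7 and 19.9 FPKM in NOR (-2.42, SE 1.42). The factor gene atf4b itself was on the other side, at 154 and 69.5 FPKM in DIO and FAT against 52.2 and 57.4 FPKM in NOR. Of the 8 abundant genes of that list, 2 lay below and 1 above without overlap (25% and 12.5%, against 17.5% and 10.9% of all 4300 genes).

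Some genes of the secretory pathway also lay lower. The disulfide isomerase gene p4hb was at 251 FPKM in DIO and 277 FPKM in FAT, against 608 and 668 FPKM in NOR (log2 fold change -1.27, SE 0.50). The translocon subunit gene sec61g was at 787 FPKM in DIO and 518 FPKM in FAT, against 1371 and 1325 FPKM in NOR (-1.08, SE 0.35). In both genes the NOR libraries were nearly equal. The factor gene xbp1, which drives this program in mammals, was at 735 and 276 FPKM in DIO and FAT, against 858 and 1251 FPKM in NOR. Of 30 abundant folding and translocation genes, 10 lay below and 1 above without overlap (33.3% below, against 17.5% of all 4300 genes). At a common sum 6 lay below and 3 above, and after quantile normalization 4 below and 3 above (13.3% below, against 15.8% of all genes). The list's median was -0.32, and -0.01 without NOR library 1.

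Ribosome biogenesis genes, which encode the nucleolar factors that build ribosomes, lay below mainly in FAT. Of 32 abundant genes, 9 lay below both NOR libraries on both obesity diets (28.1%, against 17.5% of all 4300 genes) and 0 above. FAT lay below both in 28 and DIO in 10, beside 1908 for FAT and 1102 for DIO of all 4300 genes. The medians were -0.12 with DIO and -1.01 with FAT. The acetyltransferase gene nat10 was at 23.1 FPKM in DIO and 11.4 FPKM in FAT, against 47.6 and 35.0 FPKM in NOR, and the processome gene utp3 at 37.1 and 14.8 FPKM against 48.6 and 109 FPKM.

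Lipid genes showed no common side. Fatty acid and triglyceride synthesis had 1 gene above and 3 below of 17 abundant genes, and a median of 0.05 that became -0.35 without NOR library 1. Its share below was 17.6%, near the 17.5% of all 4300 genes. The elongase gene elovl2, which makes very long polyunsaturated fatty acids, was at 9.02 FPKM in DIO and 30.2 FPKM in FAT, against 32.7 and 69.4 FPKM in NOR (log2 fold change -1.46, SE 0.60). The desaturase gene scd, which makes monounsaturated fatty acids, overlapped, at 48.6 FPKM in DIO and 331 FPKM in FAT, against 6.96 and 122 FPKM in NOR. For scd the difference between the NOR libraries exceeded that between DIO and the lower of them. The adipogenic factor gene pparg overlapped as well, at 12.4 and 15.5 FPKM in DIO and FAT against 10.5 and 14.8 FPKM in NOR (0.14, SE 0.57). Fatty acid oxidation had 1 gene above and 4 below of 22, and its median of -0.10 became 0.09 at a common sum. Its share below, 18.2%, was also near that of all genes. The acyl-CoA synthetase and bile acid gene slc27a2a was at 113 and 330 FPKM in DIO and FAT, against 544 and 510 FPKM in NOR (-1.44, SE 0.75). Of 7 abundant lipid export and bile acid genes, 4 lay below (57.1%) and 0 above. At a common sum 2 lay below (28.6%, against 12.4% of all genes).

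Of the genes higher on the obesity diets, per2 belongs to the core of the circadian clock and is induced by light in zebrafish. It was at 35.2 FPKM in DIO and 24.2 FPKM in FAT, against 1.09 and 16.4 FPKM in NOR. The lower NOR library set most of the difference, with a log2 fold change of 2.32 (SE 0.81, limma adjusted p = 0.995), or 3.85 without NOR library 2. The clock repressor nr1d1 was on the other side, at 57.9 FPKM in DIO and 119 FPKM in FAT, against 214 and 154 FPKM in NOR (-1.12, SE 1.4), as was nfil3-6, a clock output factor, at 13.5 and 36.8 FPKM against 108 and 86.5 FPKM. Of 11 abundant clock genes, 2 lay above and 2 below (18.2% each, against 10.9% and 17.5% of all 4300 genes). The hour of collection of each library was not given in the labels used here, and its part in these values was not tested.

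Clstn1, a calcium-binding membrane protein known from neurons, was at 18.9 FPKM in DIO and 23.1 FPKM in FAT, against 2.16 and 3.75 FPKM in NOR (log2 fold change 2.50, SE 0.74, limma adjusted p = 0.897). The phosphatase gene ppm1la, which in mammals acts on stress kinases, was at 80.5 FPKM in DIO and 143 FPKM in FAT, against 43.7 and 44.0 FPKM in NOR (1.27, SE 0.38, limma adjusted p = 0.911). In both genes DIO and FAT were well above NOR, and the NOR libraries were close together. The error of ppm1la was the smallest among the 20 named genes with the largest positive differences. The next smallest was that of the retinoic acid receptor gene raraa, at 50.2 and 23.7 FPKM in DIO and FAT, against 5.77 and 22.9 FPKM in NOR (1.48, SE 0.57). In raraa the gap between FAT and NOR library 2 was under 1 FPKM, and without that library the log2 fold change was 2.39. The collagen-modifying enzyme genes p4ha2 and plod1a also lay higher, with p4ha2 at 21.5 and 28 FPKM in DIO and FAT, against 16.6 and 2.16 FPKM in NOR (1.78, SE 0.85).

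The lipase gene cel.2, a digestive enzyme of the exocrine pancreas, was at 15.3 FPKM in DIO and 18.9 FPKM in FAT, against 1.67 and 9.60 FPKM in NOR. The summed exocrine pancreas markers, 29.3 and 105 FPKM in DIO and FAT against 13.1 and 67.6 FPKM in NOR, had the same lowest library and overlapped between the diets. Their part in the cel.2 difference was not tested.

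A list of genes that the study names, most for HBx(p53-) and some for other fish or for cancer ranks, held 59 genes, of which 53 were matched and 34 were abundant. Both obesity libraries lay below both NOR libraries in 18 and above in 4, with a median of -1.67, or -0.92 without NOR library 2. These shares were 52.9% and 11.8%, against 17.5% and 10.9% of all 4300 genes. Many of its genes were chosen on these samples, so its direction is not independent evidence. Several of its genes overlapped between the diets. The iron exporter gene slc40a1 was at 749 FPKM in DIO and 440 FPKM in FAT, against 35.3 and 564 FPKM in NOR (log2 fold change 2.01, SE 1.04). Without NOR library 2 its log2 fold change was 3.99. The activin subunit gene inhbab was at 79.8 and 5.80 FPKM in DIO and FAT, against 33.1 and 0.345 FPKM in NOR. In slc40a1 1 NOR library stood apart from the other 3 libraries, while inhbab spread across all 4.

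The second comparison set DIO and FAT separately against the same NOR libraries, to show where they parted. DIO and FAT share these NOR libraries, so values for both are set side by side. For these contrasts limma was fitted with 11 groups of genotype and diet, in which DIO and FAT are each a single library that is assumed to vary like the other groups. With DIO 431 genes were called (1.28% of 33724), 411 higher and 20 lower, and with FAT 356 (1.06%), 335 higher and 21 lower. Nearly all of these calls lay at low levels: only 5 with DIO and 6 with FAT were of abundant genes. When limma was fitted anew to genes whose mean over the 16 libraries reached 1 FPKM, the calls were 2 with DIO and 4 with FAT. Among the abundant calls were assembled genes without a symbol that reached a mean of 10 FPKM only through the diets in which they were above 0. The single DIO and FAT libraries add no spread to this fit, so the p-values of these genes are not given. MSTRG.24166 was listed at 0 in DIO and FAT, against 35.7 and 26.8 FPKM in NOR. MSTRG.31502 was at 41.7 FPKM in DIO and 67.9 FPKM in FAT and listed at 0 in both NOR libraries. Neither was called with the diets pooled (limma adjusted p = 0.28 and 0.291), and both were listed at 0 in all 4 WT libraries. The cytochrome P450 gene cyp3c3 was called with DIO only. It was listed at 0 in DIO and at 8.23 FPKM in FAT, against 24.7 and 12.2 FPKM in NOR (limma adjusted p = 0.042 with DIO and 1 with FAT).

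Among the 4300 abundant genes, 404 were at least 2-fold higher and 307 at least 2-fold lower with DIO, and 208 were higher and 651 lower with FAT. The lean of FAT to lower values followed the scaling, with 391 higher and 432 lower at a common sum and 426 higher and 410 lower after quantile normalization. Taken directly, FAT against DIO gave 690 limma calls (2.05%), 309 higher and 381 lower. Of these, 1 was of an abundant gene, which has no symbol. Among the calls at a lower mean level was the desaturase gene degs2, which acts on sphingolipids. It was listed at 0 in FAT and was at 21.2 FPKM in DIO, with 3.92 and 2.46 FPKM in NOR. Its p-value is not given, since FAT and DIO are 1 library each.

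In 490 of the 4300 genes (11.4%) DIO lay above both NOR libraries and FAT below both, and in 125 (2.91%) FAT lay above and DIO below. These counts are on the values as deposited and were not repeated under other scalings. By 2-fold, FAT against DIO had 224 abundant genes higher and 824 lower as deposited. After quantile normalization, with abundant genes chosen anew, it had 487 higher and 484 lower. Genes of the first kind included odc1, the first enzyme of polyamine synthesis, at 1.09 FPKM in FAT and 93.0 FPKM in DIO, with 45 and 10.1 FPKM in NOR (FAT against DIO -5.49, SE 3.30). They included svip, an inhibitor of protein disposal from the endoplasmic reticulum, at 11 FPKM in FAT and 152 FPKM in DIO, with 12.0 and 17.5 FPKM in NOR (-3.68, SE 0.94, limma adjusted p = 0.23). In svip the FAT and NOR libraries were close together and DIO alone stood apart. The mitochondrial gene higd1a, which is induced by low oxygen, was at 34.5 FPKM in FAT and 293 FPKM in DIO, with 84.0 and 118 FPKM in NOR (-3.05, SE 2.22). The chaperone gene hspa4a and the amino acid transporter gene slc3a2a had the same order, with slc3a2a at 1.14 FPKM in FAT and 22.2 FPKM in DIO, and 2.76 and 14.7 FPKM in NOR.

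Genes of the second kind included several of lipid metabolism. Angptl4, a secreted inhibitor of lipoprotein lipase that fatty acids induce in mammals, was at 480 FPKM in FAT and 51.6 FPKM in DIO, with 152 and 441 FPKM in NOR (FAT against DIO 3.19, SE 1.80). Hmgcra, a reductase that sets the rate of cholesterol synthesis, was at 68.5 FPKM in FAT and 11.5 FPKM in DIO, with 16.3 and 37.8 FPKM in NOR (2.47, SE 1.33). In both genes FAT was only slightly to moderately above the higher NOR library, and DIO was low. The desaturase gene fads2, which makes polyunsaturated fatty acids, was at 759 FPKM in FAT and 227 FPKM in DIO, with 281 and 682 FPKM in NOR (1.74, SE 0.75), and tgfbi, a matrix protein gene, was at 502 FPKM in FAT and 74.7 FPKM in DIO, with 198 and 349 FPKM in NOR (2.73, SE 1.08). None of the 20 genes named for opposite sides was called (limma adjusted p between 0.23 and 1).

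**Figure D4:**
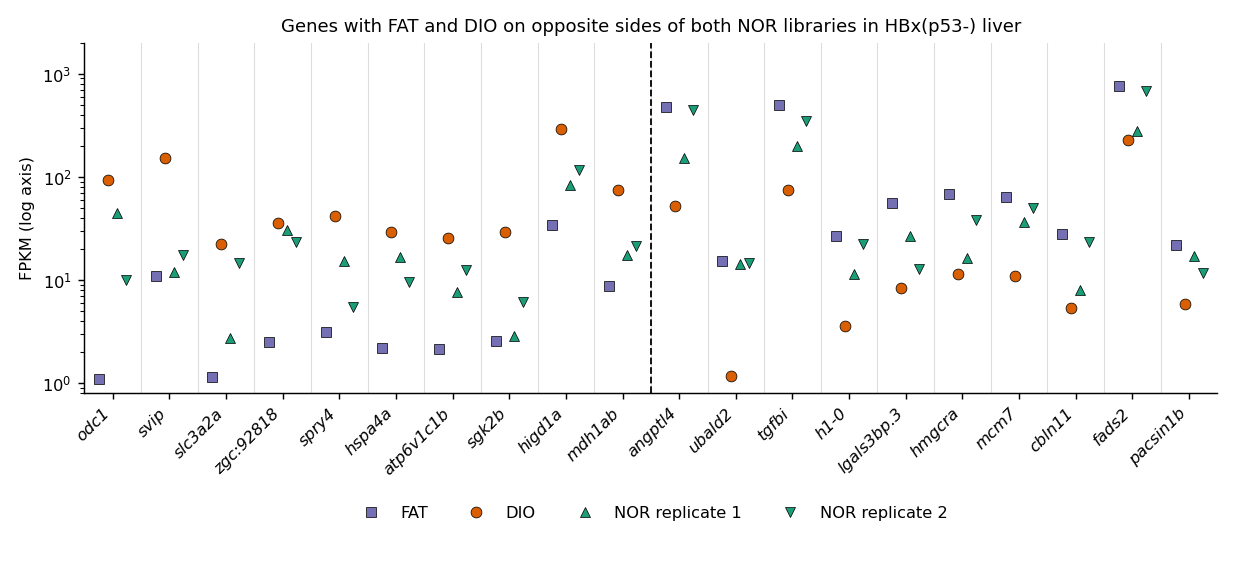
FPKM (log axis) of the 10 genes with the largest difference in each direction between FAT and DIO among named genes with FAT and DIO on opposite sides of both NOR libraries; 1 point per HBx(p53-) library. Left of the dashed line DIO is highest (svip 11 FPKM in FAT and 152 FPKM in DIO), and right of it FAT is highest (angptl4 480 FPKM in FAT and 51.6 FPKM in DIO).

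Some lists also had medians that differed between the 2 diets. Of the 62 abundant respiratory chain and ATP synthase genes, FAT lay below both NOR libraries in 43 and above both in 1, while DIO lay below both in 4 and above both in 23. Of all 4300 genes FAT lay below both in 1908 and above both in 778, while DIO lay below both in 1102 and above both in 1422, so the share above NOR with DIO was near that of all genes. The median was 0.21 with DIO and -0.53 with FAT, and FAT against DIO it was -0.76, beside -0.37 over all 4300 genes. After quantile normalization these became -0.41 for the list and -0.02 over all genes. Cytosolic heat shock protein genes had a median of 0.83 with DIO and -0.77 with FAT over 7 genes. Ribosome biogenesis genes had medians of the same sign, -0.12 with DIO and -1.01 with FAT, and -0.96 FAT against DIO, over 32 genes. The heat shock list also holds the mitochondrial chaperone gene hspd1, at 66.0 FPKM in FAT and 188 FPKM in DIO, with 98.2 and 113 FPKM in NOR. Each of these contrasts rests on a single library for each diet.

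The third comparison asked whether the diets acted differently in HBx(p53-) and in WT liver, as the difference of the diet effects in the limma fit of 8 groups. It called 16 genes (0.0474% of 33724), 9 with a higher difference and 7 with a lower one, none with a symbol or abundant. At an unadjusted p under 0.05 it gave 874 genes. Of the 241 abundant genes that were lower without overlap and by 2-fold in HBx(p53-), 41 lay below without overlap in WT, 13 lay above, and 187 overlapped. Of the 118 that were higher, 34 lay above in WT, 0 below, and 84 overlapped. The median log2 differences of the lower genes were -1.41 in HBx(p53-) and -0.41 in WT, and those of the higher genes 1.32 in HBx(p53-) and 0.66 in WT. The HBx(p53-) medians are set by the choice of these genes. Over all 4300 genes WT had 541 above and 467 below without overlap.

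Many of the genes that were lower in HBx(p53-) had WT NOR libraries that stood far apart. Igfbp1a in WT was at 90 FPKM in DIO and 60.6 FPKM in FAT, against 7265 and 55.1 FPKM in NOR. The pdk2b gene in WT was at 166 and 167 FPKM in DIO and FAT, against 3964 and 249 FPKM in NOR, and g6pc1a.2 at 762 and 2229 FPKM against 6010 and 558 FPKM. In all 3 genes WT NOR library 1 was far above WT NOR library 2. In pdk2b both WT obesity libraries still lay below both NOR libraries, as in HBx(p53-), while igfbp1a and g6pc1a.2 overlapped in WT. The difference of the diet effects, HBx(p53-) minus WT, was -1.04 (SE 2.48) for igfbp1a, -2.01 (SE 2.56) for pdk2b and -2.56 (SE 1.76) for g6pc1a.2, each with a limma adjusted p of 1. For the amino acid list the median was -0.62 in HBx(p53-) and 0.04 in WT, where 3 genes lay above and 5 below of the same 37. The WT median over all 4300 genes was 0.03, with 541 above and 467 below, so the list was near all genes in WT. No gene of the list was called for the difference.

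Glucokinase lay higher on the obesity diets in both genotypes. Beside the HBx(p53-) levels of 194 FPKM in DIO and 4.88 FPKM in FAT, WT had 1559 FPKM in DIO and 540 FPKM in FAT. Its NOR libraries 1 and 2 were at 1.64 and 293 FPKM. The low value was thus in WT NOR library 1, which was the high one for igfbp1a, pdk2b and g6pc1a.2. The difference of the diet effects was -1.08 (SE 4.19), which leaves its sign unresolved.

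The abundant named gene with the smallest p for the difference was dscama. In WT it was at 67.4 FPKM in DIO and 221 FPKM in FAT, against 198 and 97.9 FPKM in NOR, so that only the HBx(p53-) obesity libraries were near the floor. The difference was -5.84 (SE 0.84, limma adjusted p = 0.0585). It missed the threshold here and passed it with a pseudocount of 0.1, at a common sum and after quantile normalization (limma adjusted p between 0.0249 and 0.0305). With any single one of the 8 libraries left out, the difference lay between -6.69 and -4.995. Leaving out a library raised the number of calls over all genes, so whether dscama passed there is not counted. Among only genes averaging 1 FPKM or more, limma called 0 for the difference, dscama included, and 242 had an unadjusted p under 0.05. The aldehyde dehydrogenase gene aldh9a1a.2, whose human relative acts in carnitine synthesis, was at 12.2 FPKM in DIO and 21.3 FPKM in FAT, against 47.0 and 107 FPKM in NOR, in HBx(p53-). In WT it was at 22.1 and 34.5 FPKM in DIO and FAT, against 15.5 and 11.3 FPKM in NOR. The diets thus lay on opposite sides in the 2 genotypes, with a difference of -3.08 (SE 0.74, limma adjusted p = 0.748). The deaminase gene rida was at 42.3 and 31.5 FPKM in DIO and FAT, against 78.4 and 74.0 FPKM in NOR, in HBx(p53-), and at 61.0 and 47.9 FPKM against 34 and 24.8 FPKM in WT (-1.92, SE 0.49, limma adjusted p = 0.90). On the higher side, clstn1 in WT was at 7.74 and 2.41 FPKM in DIO and FAT, against 4.96 and 27.9 FPKM in NOR (difference 3.76, SE 1.05, limma adjusted p = 1). Without WT NOR library 1 the difference was 4.90.

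**Figure D5:**
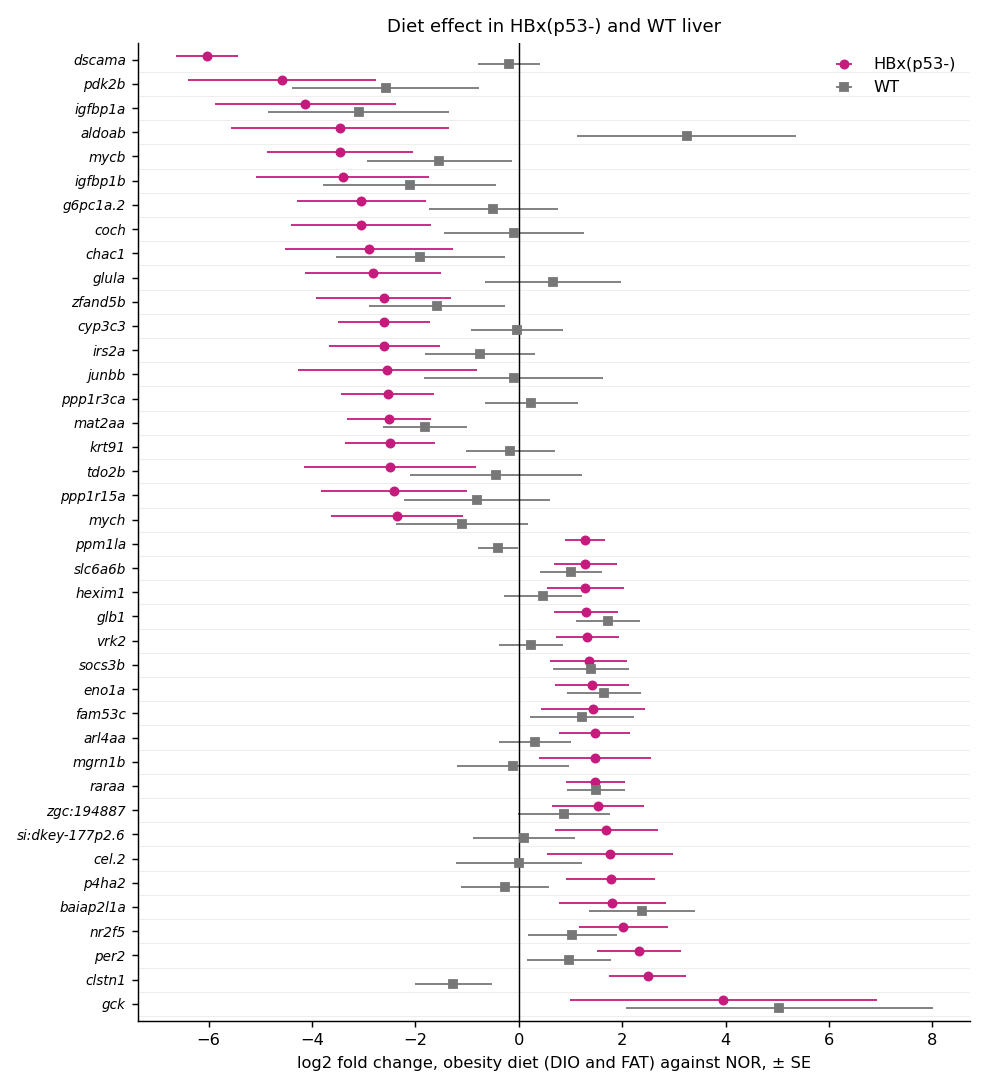
Log2 fold change of the obesity diets (DIO and FAT) against NOR in HBx(p53-) liver (circles) and WT liver (squares), with bars of 1 standard error from the limma fit, for the 20 named genes with the largest difference in each direction in HBx(p53-). Dscama stands at -6.03 in HBx(p53-) with a bar that does not meet the WT bar, while for gck the bars of both genotypes overlap.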

How the data were processed

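The FPKM table deposited by the authors for all 16 liver libraries was used unchanged. It held the same values as the 16 single-library files. The submitters' processing notes name FastQC 0.11.5, HISAT2 2.1.0, SAMtools 1.7, StringTie 1.3.4d and R 3.5.3. Of 35885 entries, 11763 took a symbol through their RefSeq transcript in a GRCz12tu gene table. That table was used for names only, since the reads were aligned to GRCz10. Another 209 entries were named from their own identifier. The 4072 identifiers that were symbols already are among the entries so named. Entries of 1 gene were summed (30 entries), which left 35855 genes. Those above 0 in any library (33724) were tested on log2(FPKM + 1) with limma 3.58.1 in R 4.3.3 (lmFit, and eBayes with trend). The steps were checked on simulated data. Python 3.11.15 made the lists and figures.

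Named are called genes; the 20 largest differences in each direction among genes with a symbol, a mean of at least 10 FPKM and no overlap; list members past 2-fold without overlap, with a few further members; genes from a list of those the study names, most for HBx(p53-); the 10 largest differences in each direction between FAT and DIO on opposite sides of NOR; and the 5 smallest p in each direction against WT. Unnamed genes, MSTRG.24166 and MSTRG.31502, and degs2, zfp36l1a, atf4b, hspd1, ppp1r3cb and pck2 were added after their values were seen. The comparisons, members and lists were chosen with earlier results of these data known. Some genes are not reported here.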

Additional observations from a re-analysis of the deposited data

Results flagged for a closer look

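The difference of the diet effects between HBx(p53-) and WT liver was called by limma for 16 genes, all of low level and without a symbol. Among the genes chosen for naming, 6 that averaged 10 FPKM or more in HBx(p53-) had the diets on opposite sides in the 2 genotypes. In these, DIO and FAT lay to one side of both NOR libraries in HBx(p53-) and to the other in WT. Their differences on the log2 scale, HBx(p53-) minus WT, were -6.70 for aldoab (SE 2.99), -3.08 for aldh9a1a.2, -1.95 for snapin, -1.92 for rida, -1.63 for nr1d1 and 1.04 for adtrp1. Limma called none of the 6 for the difference (adjusted p between 0.748 and 1). Aldh9a1a.2, snapin, rida and adtrp1 were themselves chosen by their small p for this difference. The 6 are not a count over all genes with a symbol. Of the 241 abundant genes lower by 2-fold without overlap in HBx(p53-), 13 lay above in WT. Among the 119 of them with a symbol, 5 did. Of the 118 higher genes, 0 lay below in WT. Over all 4300 abundant genes, 541 lay above and 467 below in WT, and of the 1982 with a symbol, 217 lay above. Opposite sides in WT were thus no more frequent among these genes than over all abundant genes. Aldoab rests on 1 library of each genotype, at 0.305 FPKM in DIO and 0 in FAT, against 0.446 and 108 FPKM in NOR, in HBx(p53-), and at 0.257 FPKM in DIO and 70.7 FPKM in FAT, with 0 listed in both NOR libraries, in WT.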

How the results depend on the processing

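No paired analysis was possible because DIO and FAT are 1 library each with no replicate number. Counts of limma calls moved most. For the obesity diets, 8 calls became 516 with 11 groups, 13 after quantile normalization, 1 when only genes averaging 1 FPKM or more were fitted and 0 with the 4 HBx(p53-) libraries alone (1373 at an unadjusted p under 0.05). The filter at 1 FPKM left 2 of 431 calls with DIO, 4 of 356 with FAT, 1 of 690 for FAT against DIO and 0 of 16 for the difference from WT (242 at an unadjusted p under 0.05). Quantile normalization gave 583 with FAT. Leaving out 1 library gave 317 (DIO left out) to 745 (NOR library 2) for the obesity diets, 1144 to 1352 with DIO, 1182 to 1205 with FAT and 233 to 602 for the difference from WT. The cause was not tested.

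With genes chosen anew by mean after scaling, 944 lay above without overlap at a common sum and 842 after quantile normalization, in place of 469, and 254 and 188 by 2-fold in place of 118. With FAT, 391 and 426 were 2-fold higher and 432 and 410 lower. FAT against DIO gave 487 higher and 484 lower after quantile normalization, in place of 224 and 824. Leaving out 1 library, which leaves 3 to be ordered, gave 778 to 1682 above and 1102 to 2126 below without overlap, and 178 to 547 and 292 to 620 by 2-fold. It gave 323 to 879 higher and 382 to 485 lower with DIO, 214 to 465 and 575 to 1087 with FAT, and 189 to 610 and 398 to 896 for the difference from WT, in place of 222 and 470. A pseudocount of 0.1, and a mean over all 16 libraries, moved no count by over 1.5 times. Signs turned in 5 of the named genes whose pooled diet effect was followed. Genes named only for FAT and DIO on opposite sides, or only for the difference from WT, were not followed in this way. Nor were genes of the study's list under a mean of 10 FPKM that were named for nothing else. Genes with FAT and DIO on opposite sides of NOR turn by their choice when 1 obesity library is left out. Leaving out 1 library gave -0.089 (NOR library 1) to 0.38 (NOR library 2) for pparg, with -0.0058 without FAT, -1.05 (FAT) to 1.42 (DIO) for hmgcra, with -0.39 without NOR library 1, -0.54 (NOR library 2) to 4.12 (NOR library 1) for inhbab, -1.02 (NOR library 1) to 0.16 (NOR library 2) for nop56 and -4.94 (NOR library 1) to 0.25 (NOR library 2) for slc27a6. Without FAT, the log2 fold change of cyp3c3 was -4.21, in place of -2.60. Leaving out libraries for the single diets and for WT, and the list medians under each alternative, were chosen after seeing the data.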

Other observations

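Of 14 abundant cytochrome P450 and conjugation genes in HBx(p53-) liver, 6 lay below without overlap and 0 above on the values as deposited. The share below was 42.9%, against 17.5% of all 4300 genes. The steroid dehydrogenase gene hsd11b2, which inactivates cortisol, was at 13.5 FPKM in DIO and 4.70 FPKM in FAT, against 41.2 and 21.1 FPKM in NOR (log2 fold change -1.75, SE 1.29). At a common sum 4 of the 14 cytochrome P450 and conjugation genes lay below and 1 above. After quantile normalization 3 lay below (21.4%, against 15.8% of all genes) and 0 above. Toll-like receptor and acute-phase genes had 4 below and 3 above of 10 (40% and 30%, against 17.5% and 10.9% of all genes). After quantile normalization 2 of the 10 lay below and 2 above. The complement gene cfb was at 230 FPKM in DIO and 308 FPKM in FAT, against 460 and 380 FPKM in NOR (-0.65, SE 0.29), and tnfrsf1a, a receptor for tumour necrosis factor, at 19.3 and 18.5 FPKM against 10.5 and 9.14 FPKM (0.88, SE 0.68). None of these genes passed the test.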
